A study of Mus musculus with 6 samples.

Results

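The endothelial junction genes are 9 genes for proteins that hold neighbouring endothelial cells (ECs) together: the adherens junction gene Cdh5, the tight junction genes Cldn5, Ocln and Tjp1, the junctional adhesion molecule genes F11r, Jam2 and Jam3, the related Esam, and the border adhesion gene Pecam1. Members were found by name, as every probe set that the platform's annotation assigns to 1 gene symbol equal to one of these, which gave 17 of 45101 probe sets. The arrays carried 5 probe sets for Jam2, 2 each for Cdh5, Ocln, Jam3 and F11r, and 1 each for Cldn5, Tjp1, Esam and Pecam1. Lung ECs came from immunodeficient NSG mice, 6 to 8 weeks old, injected in a vein with MDA-MB-231-LM2 cells, a line selected from MDA-MB-231 human breast cancer cells for spread to the lung. In the shTNC group the cancer cells carried a hairpin RNA against TNC, the gene of the matrix glycoprotein tenascin C, and in the shControl group a control hairpin. Lungs were taken on day 20 (3 weeks in the labels), and ECs were collected by flow sorting as cells with CD31 and without CD45, CD11b, EpCAM, CD140a, CD140b or the GFP of the cancer cells. Each group held 3 biological replicates with 1 array each. ECs were taken from whole lungs, so each value averages vessels inside and outside the metastases. The study reports that depletion of TNC reduced colonization of the lung by these cancer cells. Metastatic load was not used here, so its part in a difference cannot be told apart from that of the hairpin. The gene depleted is the human one, in cells that the sort removed.

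At the border between ECs, VE-cadherin, the product of Cdh5, binds its like on the next cell and is tied to actin by catenins. Tight junctions lie among these contacts: claudins and occludin (Ocln) span the membrane, the JAM proteins and ESAM join cells through immunoglobulin domains, and the scaffold ZO-1 (Tjp1) holds them from inside. Lung capillaries depend on these contacts to keep fluid and blood cells out of the air spaces, and they are loosened when leukocytes or tumour cells cross the vessel wall. The comparison asks how far this set of genes differed in lung ECs when the metastatic cells were depleted of TNC.

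No junction gene was called. In limma, 0 of the 17 probe sets had an adjusted p under 0.05, as did 0 of all 45101 (0% called), and the smallest adjusted p among the 17 was 0.38. At an unadjusted p under 0.05 there was 1 member probe set, the brighter one of Jam3, which was lower in shTNC, and 0 were higher. That is 5.88% of the 17, against 13.0% of all probe sets in either direction (6.30% lower and 6.66% higher). For genes of secreted proteins higher in lung ECs at week 3, the study asked for a log2 difference of more than 0.75. It also asked for an unadjusted p under 0.05 and an adjusted one under 0.25. Applied here to the limma results in either direction, these thresholds called 0 of the 17, against 0.182% of all probe sets. The groups did not overlap for 3 of the 17, or 17.6%, all lower in shTNC, against 19.4% of all probe sets in either direction and 10.5% lower. Over the brightest probe set of each gene the median difference was -0.028 on the log2 scale (shTNC minus shControl), against -0.030 over all 18193 genes. The 95% intervals of the 9 brightest probe sets lay between 0.724-fold and 1.23-fold of the shControl level, and those of all 17 between 0.551-fold and 1.29-fold.

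**Figure D1:**
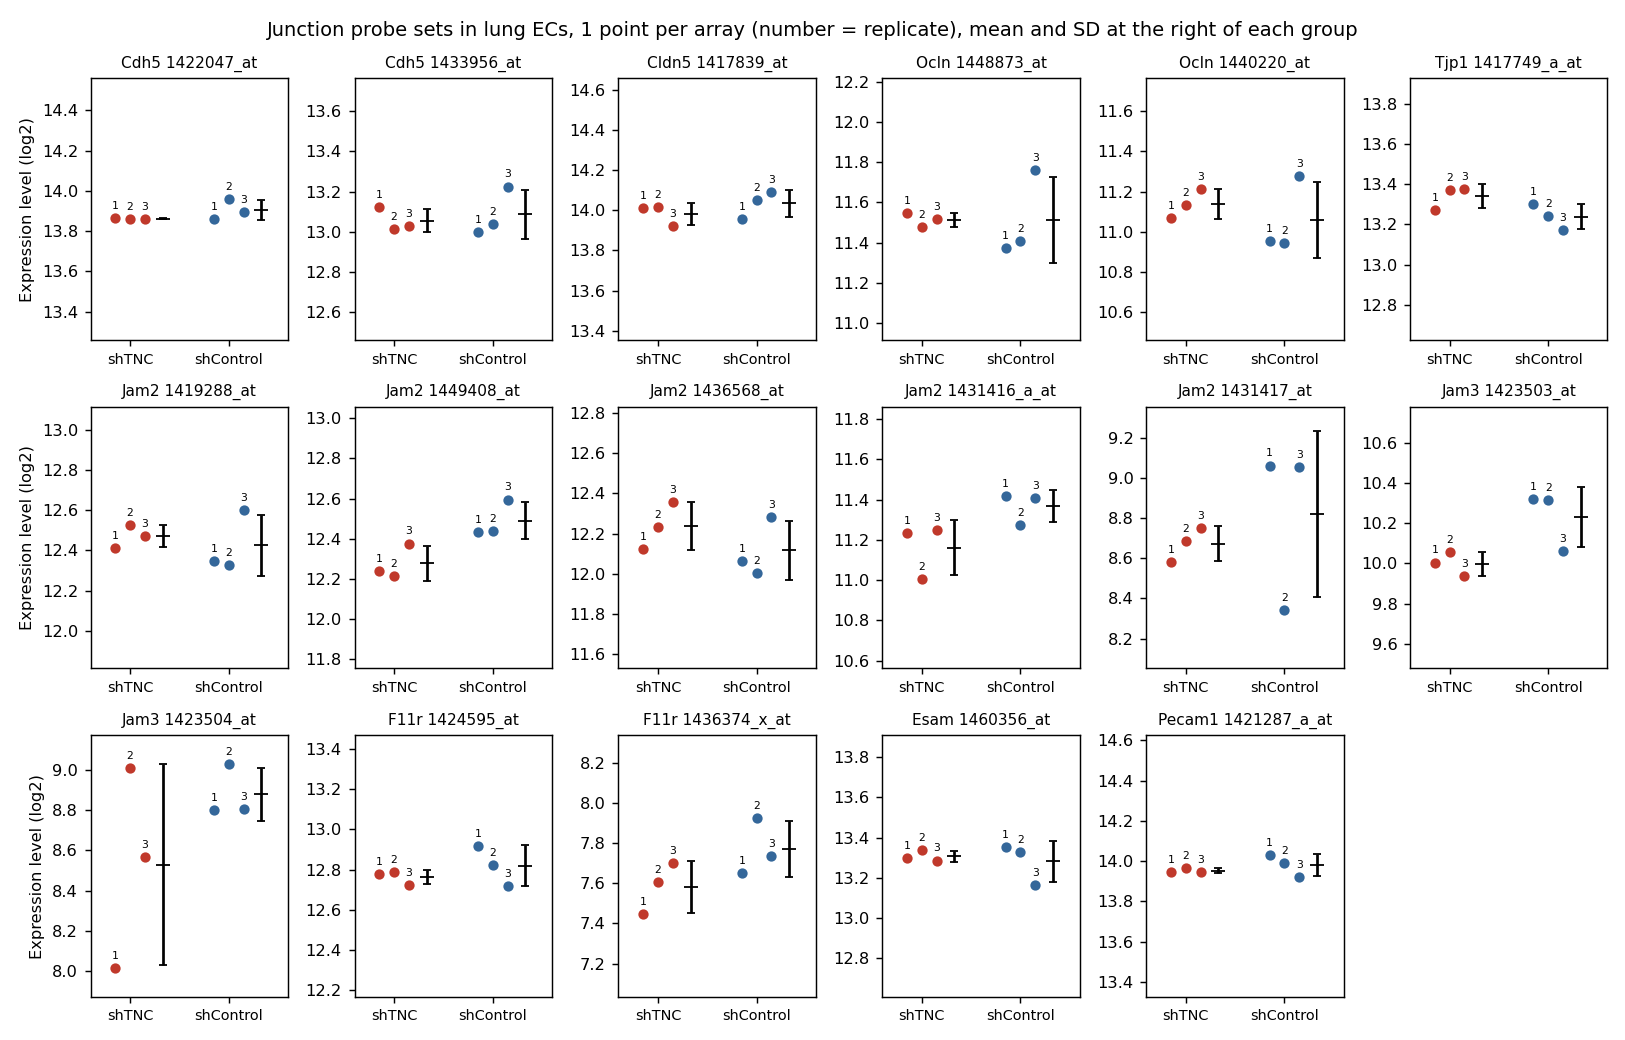
Expression level (log2, y axis) of the 17 junction probe sets in sorted lung ECs, with 1 point per array (numbered by replicate, shTNC in red, shControl in blue) and the mean and SD of 3 arrays beside each group. Every panel spans the same height, and the groups overlap in all but 3 panels: Jam3 1423503_at and Jam2 1449408_at and 1431416_a_at, all lower in shTNC.

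Cdh5 encodes VE-cadherin, the adherens junction cadherin of ECs. Its brighter probe set (1422047_at) read 13.86, 13.86 and 13.86 in shTNC replicates 1 to 3, against 13.86, 13.96 and 13.90 in shControl, and the groups overlapped. The difference was -0.043 ± 0.080 (SE, n = 3 per group), with a 95% interval from -0.23 to 0.14. This probe set lies within 1 log2 unit of the brightest on the array, where the signal may be compressed, so the dimmer one carries the comparison too. The dimmer probe set (1433956_at) read 13.12, 13.01 and 13.03 in shTNC, against 13.00, 13.04 and 13.23 in shControl, a difference of -0.033 ± 0.095. The highest reading of the dimmer one was that of shControl replicate 3, without which its difference was 0.036.

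Pecam1 encodes CD31, an immunoglobulin adhesion molecule of EC borders, whose protein was the marker on which the cells were selected. The probe set reads its RNA, and how far the sort shaped that level was not tested. The single probe set (1421287_a_at) read 13.94, 13.97 and 13.95 in shTNC, against 14.03, 13.99 and 13.92 in shControl. The shTNC readings lay inside the shControl range. The difference was -0.028 ± 0.081 (SE, n = 3 per group). Pecam1, Cldn5 and the brighter Cdh5 probe set are the 3 members near the top of the scale. Of the 226 probe sets in that range, 2.21% had an unadjusted p under 0.05 in limma, against 13.0% of all probe sets, while the groups did not overlap for 28.3%, against 19.4% of all. Neither Pecam1 nor Cldn5 has a dimmer probe set with a single gene symbol.

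Cldn5, the main claudin of endothelial tight junctions (1417839_at), read 14.01, 14.02 and 13.92 in shTNC, against 13.96, 14.05 and 14.09 in shControl. The groups overlapped, and the difference was -0.051 ± 0.085 (SE, n = 3 per group), with an interval from -0.25 to 0.14. Ocln, the gene of the membrane-spanning protein occludin, had the same mean in both groups at its brighter probe set (1448873_at), 11.51 ± 0.035 in shTNC and 11.51 ± 0.21 in shControl (SD, n = 3 each). The single readings were 11.55, 11.48 and 11.52 in shTNC, against 11.37, 11.41 and 11.76 in shControl. The equal means hide a wide shControl group, in which replicates 1 and 2 were below and replicate 3 above every shTNC array. The dimmer Ocln probe set (1440220_at) had the same order, with 11.07, 11.13 and 11.21 in shTNC, against 10.95, 10.95 and 11.28 in shControl. Without shControl replicate 3 the brighter probe set differed by 0.12, and without shControl replicate 1 by -0.070.

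Tjp1, the gene of the scaffold protein ZO-1 (1417749_a_at), had the largest positive difference among the brightest probe sets of the 9 genes, 0.10 ± 0.085 (SE, n = 3 per group), with an interval from -0.093 to 0.30 and an adjusted p of 0.64 in limma. It read 13.27, 13.37 and 13.38 in shTNC, against 13.30, 13.24 and 13.17 in shControl. Only the reading of shTNC replicate 1 fell among those of shControl.

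Jam3 encodes JAM-C, an immunoglobulin protein of EC and epithelial contacts. Its brighter probe set (1423503_at) read 10.00, 10.05 and 9.94 in shTNC, against 10.32, 10.31 and 10.06 in shControl. All shTNC readings were lower, but shControl replicate 3 stood only 0.00538 above the nearest of them. The means were 10.00 ± 0.060 in shTNC and 10.23 ± 0.15 in shControl (SD, n = 3 each), a difference of -0.23 ± 0.10 (SE) with an adjusted p of 0.38 in limma. The unadjusted p was also under 0.05 without shControl replicate 3, where the difference was -0.32, and above 0.05 without any one of the other 5 arrays, where it lay between -0.26 (without shTNC replicate 2) and -0.19 (without shControl replicate 1). With an intensity trend and robust eBayes it was above 0.05 too. The dimmer probe set (1423504_at) read 8.01, 9.01 and 8.57 in shTNC, against 8.80, 9.03 and 8.80 in shControl, a difference of -0.35 ± 0.22. Here shTNC replicates 1 and 3 lay below every shControl reading and replicate 2 lay among them. Without shTNC replicate 2 its groups did not overlap, at -0.59, and without shTNC replicate 1 the difference was -0.091.

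Jam2 encodes JAM-B, a vascular JAM protein, and its 5 probe sets did not move together. The brightest (1419288_at) read 12.41, 12.52 and 12.47 in shTNC, against 12.35, 12.33 and 12.60 in shControl, a difference of 0.044 ± 0.10 (SE, n = 3 per group). The next (1449408_at) read 12.24, 12.22 and 12.38 in shTNC, against 12.43, 12.44 and 12.60 in shControl, a difference of -0.21 ± 0.093 with groups that did not overlap. The annotation assigns both to the same transcript record. Probe set 1436568_at differed by 0.12 ± 0.11, 1431416_a_at by -0.21 ± 0.10, again without overlap, and the dimmest (1431417_at) by -0.15 ± 0.19. All 5 stayed short of the threshold, with adjusted p between 0.39 and 0.88 in limma. The unadjusted limma p of 1449408_at was 0.051. With an intensity trend and robust eBayes it was 0.0097, at an adjusted p of 0.23. The offset of 1449408_at from 1419288_at within each array was -0.18, -0.31 and -0.094 in shTNC, against 0.084, 0.11 and -0.0050 in shControl, so the offset was lower on every shTNC array. Such separation is common on these arrays: offsets between 2 probe sets of 1 gene did not overlap between the groups in 21.4% of 20692 pairs over all genes, and in 3 of the 14 pairs among junction genes, all 3 in Jam2. Without shControl replicate 2 the dimmest probe set differed by -0.38, with an unadjusted p under 0.05, and the brightest by -0.0051.

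F11r, the gene of JAM-A on endothelial and epithelial contacts and on platelets, read 12.78, 12.79 and 12.72 in shTNC at its brighter probe set (1424595_at), against 12.92, 12.82 and 12.72 in shControl. The groups overlapped and the difference was -0.055 ± 0.089 (SE, n = 3 per group), with -0.11 without shControl replicate 3 and -0.0056 without shControl replicate 1. Its dimmer probe set (1436374_x_at) lay only 0.20 above the background level of 7.48, set from the 95th percentile among 44 probe sets for olfactory receptors, and differed by -0.19 ± 0.11. Esam, the gene of an immunoglobulin adhesion molecule of ECs and platelets (1460356_at), read 13.30, 13.34 and 13.29 in shTNC, against 13.35, 13.33 and 13.16 in shControl. The difference was 0.025 ± 0.089, and -0.034 without shControl replicate 3, whose reading was the lowest of the 6.

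**Figure D2:**
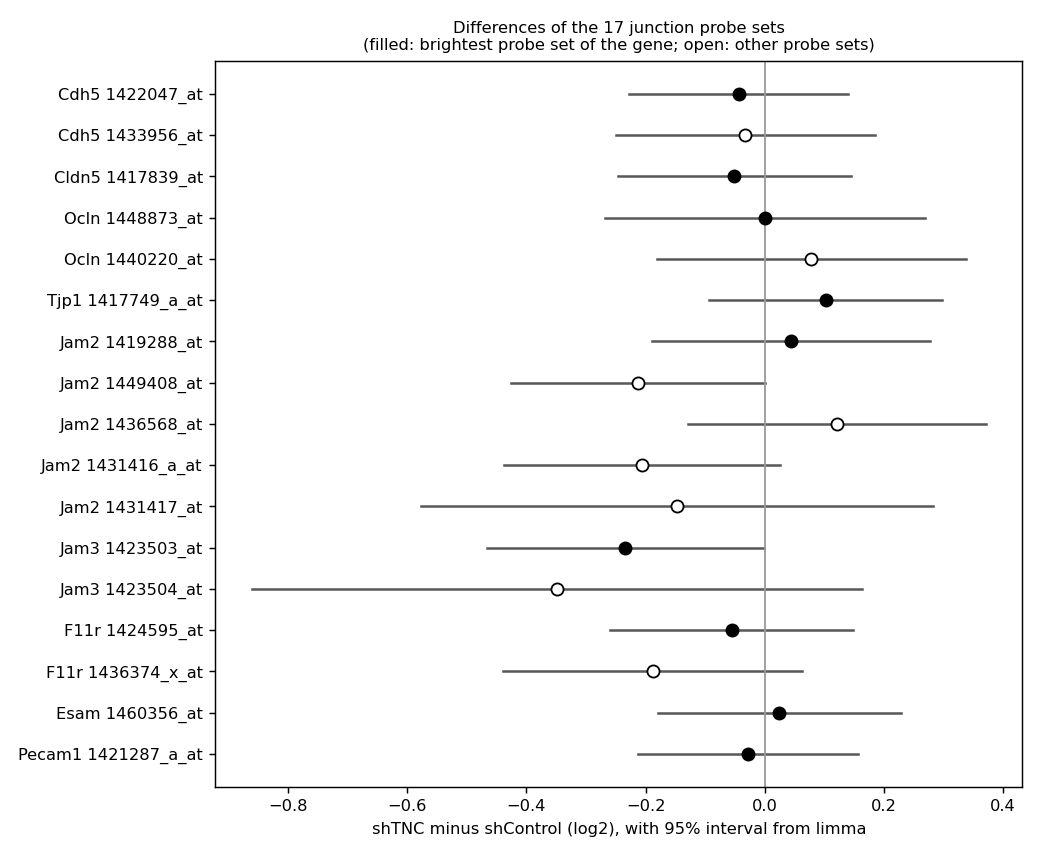
Difference of shTNC minus shControl (log2, x axis) for each of the 17 junction probe sets, with limma's 95% interval over 3 arrays per group. Filled points are the brightest probe set of each gene; the interval of Jam3 1423503_at ends just below 0, and those of the other 16 include 0.

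The arrays themselves differed in these genes, mostly within shControl. For the brightest probe sets the SD was larger in shControl than in shTNC in 9 of 9 genes, with medians of 0.035 in shTNC and 0.10 in shControl, while over all genes it was larger in shControl in 65.3%, with medians of 0.092 in shTNC and 0.13 in shControl. The array of shControl replicate 3 held the highest or the lowest of the 6 readings in 10 of the 17 probe sets, or 58.8%, against 32% of all probe sets. The array of shControl replicate 1 did so in 47.1% of the 17, against 30.7% of all, and that of shControl replicate 2 in 41.2%, against 47.9%. The array of shControl replicate 3 was the highest for both Ocln probe sets, Cldn5, the dimmer Cdh5 probe set, and the brightest Jam2 probe set and Jam2 1449408_at. It was the lowest for Tjp1, the brighter F11r probe set, Esam and Pecam1. Across all genes a different array stood apart, since shControl replicate 2 lay at 43.6 on the first principal component and the other arrays between -21.1 and 11.1. Without shControl replicate 2 the median difference of the 9 genes was -0.022. Without shControl replicate 3, 5 of the 17 probe sets were lower and 4 higher in shTNC without overlap, against 34.7% of all probe sets in either direction. No member passed an adjusted p of 0.05 in limma without any single array, and the smallest adjusted p was then 0.21, for Jam3.

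**Figure D3:**
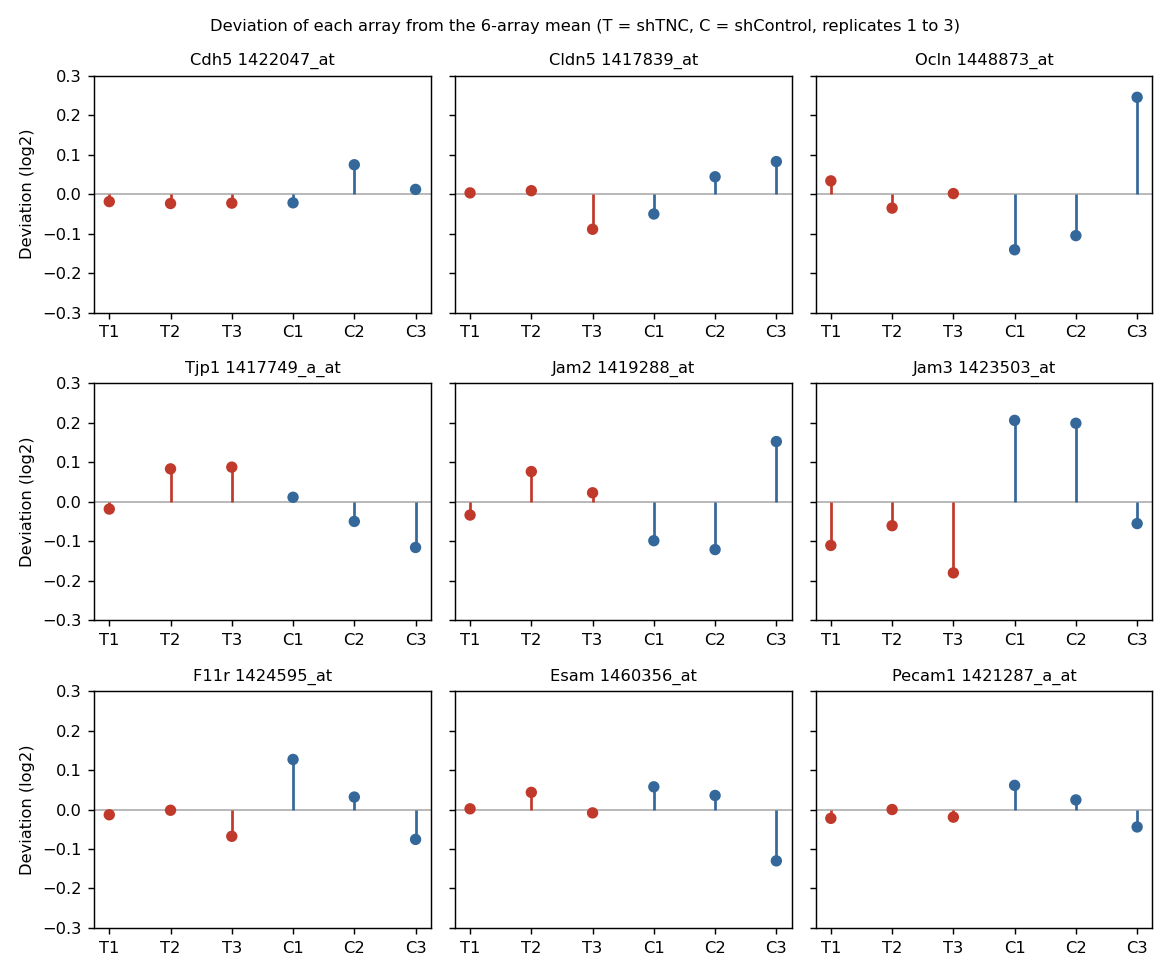
Deviation of each array from the mean of the 6 arrays (log2, y axis) for the brightest probe set of each junction gene, with shTNC arrays (T1 to T3, red) left of shControl arrays (C1 to C3, blue). The shControl replicate 3 array lies at the top for Ocln, Jam2 and Cldn5 and at the bottom for Tjp1, F11r, Esam and Pecam1, and the SD of shControl exceeds that of shTNC in 9 of 9 panels.

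Several members are also made by cells other than ECs, and in sorted cells a smaller number of such cells cannot be told apart from less RNA in each. All 14 pan-endothelial markers were well above background, and their differences had a median of 0.0086. By value 6 were lower and 8 higher in shTNC, with differences from -0.086 to 0.24. The brightest were Egfl7, Kdr and Icam2, all within 1 log2 unit of the top, where the signal may be compressed. Epithelial cells use Ocln, Tjp1 and F11r too. Of 18 epithelial markers, led by Sftpc, Hopx and Ager, 16 lay above background, and their mean level ranged from 8.66 to 9.54 over the shTNC arrays and from 8.73 to 9.30 over the shControl arrays. Epcam, a marker of the exclusion, averaged 7.64 in shTNC and 7.70 in shControl, close to the background level. Of 9 platelet markers 8 were above background (Itga2b, Ppbp and Pf4 were the brightest), with mean levels from 8.13 to 8.35 in shTNC and from 8.06 to 8.35 in shControl. Leukocyte markers, of which 12 of 15 were above background and Lyz2, Mrc1 and Chil3 the brightest, ranged from 8.34 to 8.61 in shTNC and from 8.57 to 8.66 in shControl, with 12 of 15 lower in shTNC by value and a median difference of -0.11. Mrc1 averaged 9.63 in shTNC and 10.24 in shControl, a difference of -0.62 ± 0.14 without overlap, and Chil3 9.16 in shTNC and 9.84 in shControl, a difference of -0.69 ± 0.21 with overlap. Of the markers of the exclusion, Ptprc (CD45) averaged 8.38 in shTNC and 8.05 in shControl, and Itgam (CD11b), below background, 6.55 in shTNC and 6.80 in shControl. Mesenchymal markers, all 15 above background and led by Col3a1, Col1a2 and Gsn, ranged from 9.73 to 10.05 in shTNC and from 9.52 to 9.76 in shControl (median difference 0.17), while Pdgfra averaged 9.26 in shTNC and 9.27 in shControl and Pdgfrb 8.88 in both. All 6 lymphatic endothelial markers matched were above background, with Lyve1, Flt4 and Mmrn1 the brightest, and their mean level ranged from 10.87 to 10.98 in shTNC and from 10.70 to 11.20 in shControl. The 3′ minus 5′ signal of Actb, a sign of RNA integrity, was between 0.197 and 0.274 in shTNC and between 0.276 and 0.291 in shControl, without overlap, while that of Gapdh overlapped, at 0.499 to 0.581 in shTNC and 0.558 to 0.567 in shControl. The part of other cells and of RNA integrity in the junction values was not tested.

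The partners of the junction genes were described through 4 lists, for which 94 of 97 genes were matched. None of their genes had an adjusted p under 0.05 in limma, as for all 18193 genes (0% called), and the share at an unadjusted p under 0.05 over all genes was 11.7%, with 7.12% lower and 4.54% higher in shTNC. In the adherens junction list 1 of 16 genes was lower and 2 were higher at that level (18.8%), with a median difference of 0.062. In the tight junction list 3 of 25 were lower and 4 higher (28%), with a median of -0.0030. Of the 25 genes, 6 lay near background. In the fit without probe sets near background, 2 of 19 were lower and 4 higher. Among the border adhesion molecules 0 of 17 passed in either direction, with a median of -0.031. Among the junction and barrier regulators 1 of 36 was lower and 4 were higher (13.9%), with a median of 0.029. The groups did not overlap for 4 tight junction genes lower and 4 higher in shTNC (32%). For the border adhesion molecules this held for 2 lower and 0 higher (11.8%), against 19.8% of all genes in either direction.

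**Figure D4:**
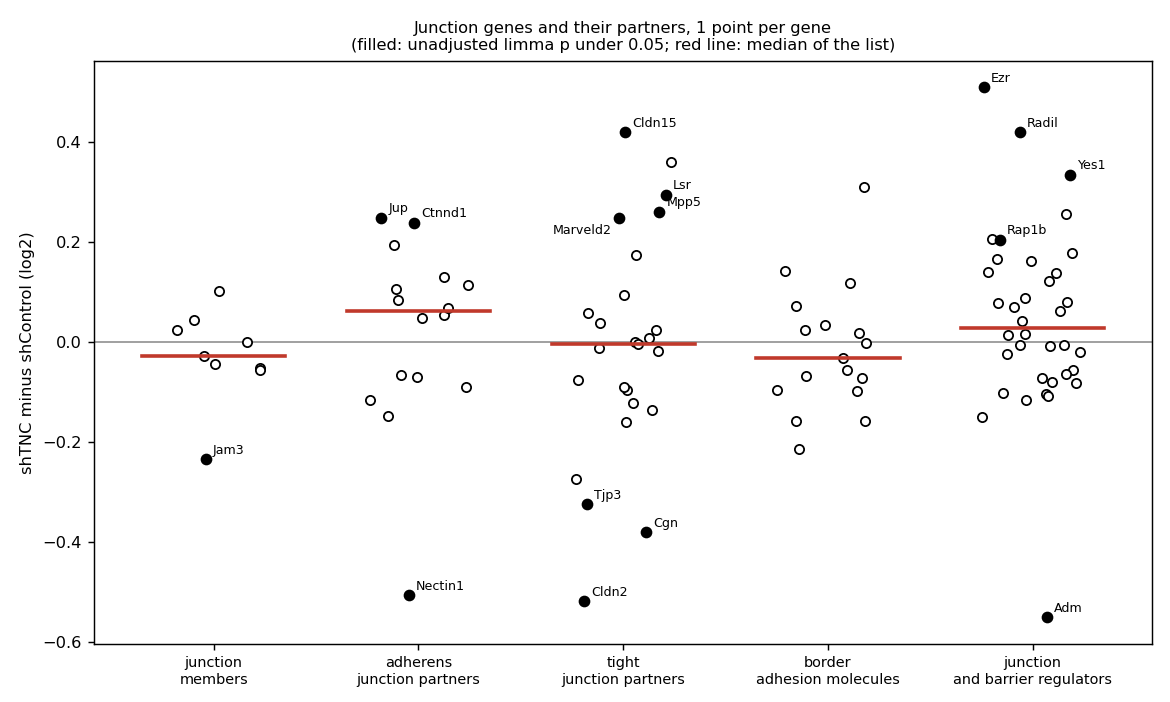
Differences between shTNC and shControl (shTNC minus shControl, log2, y axis) for the 9 junction genes and for the genes of 4 partner lists at the brightest probe set of each, with the list median as a red line. Named, filled points have an unadjusted p under 0.05 in limma: Jam3 among the 9 junction genes, 3 adherens junction, 7 tight junction, 0 border adhesion and 5 regulator genes; the list medians lie between -0.031 and 0.062.

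Catenins tie VE-cadherin to actin. Ctnnd1, the catenin that keeps VE-cadherin at the cell surface (1422450_at), read 12.37, 12.53 and 12.54 in shTNC, against 12.11, 12.25 and 12.37 in shControl, a difference of 0.24 ± 0.10 (SE, n = 3 per group) that touched at 1 array. Its other probe sets differed by -0.024 ± 0.085 and 0.26 ± 0.11. Jup, or plakoglobin (1426873_s_at), read 12.42, 12.36 and 12.25 in shTNC, against 12.02, 12.22 and 12.04 in shControl, a difference of 0.25 ± 0.096 without overlap. Both were at an adjusted p of 0.34 or above in limma. Ctnnb1 and Ctnna1, for beta- and alpha-catenin (chosen after their values were seen), differed by 0.084 ± 0.080 and 0.069 ± 0.092. Nectins are adhesion proteins that sit beside the cadherin. Nectin1 (1450819_at) read 9.22, 8.81 and 8.75 in shTNC, against 9.43, 9.48 and 9.38 in shControl, a difference of -0.51 ± 0.13 with an adjusted p of 0.24 in limma. Every shTNC reading was lower, and the other Nectin1 probe sets differed by -0.30 ± 0.10 and -0.16 ± 0.19. Nectin3 (1423331_a_at) differed by 0.19 ± 0.086, with 5 further probe sets between -0.038 and 0.29, and Nectin2 (chosen after its values were seen) by -0.15 ± 0.10, lower without overlap. In this list the groups did not overlap for 3 genes lower and 4 higher in shTNC, or 43.8%, against 19.8% of all genes in either direction. Over probe sets by level, the share was 28.3% within 1 log2 unit of the top, 21.4% of the 30287 above background and 15.4% of those near background. Of the 16 genes, 15 lay above background, and among them Ptprb lay within 1 log2 unit of the top. Whether level had a part in the separation in this list was not tested.

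Among tight junction partners the genes with the smallest p above background belonged to several parts of the junction. Lsr (1451255_at) and Marveld2 (1426914_at) encode angulin and tricellulin, which mark the points where 3 cells meet in epithelia. Lsr read 10.02, 9.90 and 9.90 in shTNC, against 9.60, 9.61 and 9.72 in shControl, a difference of 0.29 ± 0.086 (SE, n = 3 per group). Marveld2 read 10.60, 10.58 and 10.60 in shTNC, against 10.45, 10.26 and 10.32 in shControl, a difference of 0.25 ± 0.087. Neither gene's groups overlapped, and the adjusted p in limma was 0.27 for Lsr and 0.31 for Marveld2. Mpp5, the polarity scaffold PALS1 (1450113_at), differed by 0.26 ± 0.091, but probe set 1434954_at differed by -0.17 ± 0.087, both without overlap, and 1421064_at by 0.0075 ± 0.092. Cgn, for the cytoplasmic plaque protein cingulin (1430329_at), differed by -0.38 ± 0.14 at a level just above background.

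Border adhesion molecules help leukocytes and neighbouring cells to hold on at the vessel wall. Cdh13, for the membrane-anchored T-cadherin (1423551_at), read 9.95, 10.32 and 10.18 in shTNC, against 9.58, 9.90 and 10.03 in shControl, a difference of 0.31 ± 0.14 (SE, n = 3 per group). Its groups overlapped, and the 2 next probe sets gave 0.41 ± 0.17 and 0.41 ± 0.22, while the dimmest, below background, gave -0.28 ± 0.13. Emcn, the endothelial sialomucin endomucin, differed by -0.16 ± 0.093, lower without overlap. Cd99l2, which takes part in leukocyte passage, differed by 0.14 ± 0.091, and Pvr, a nectin-like adhesion protein, by -0.21 ± 0.15. All 4 had an adjusted p of 0.41 or above in limma.

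The regulators act on junctions through small GTPases, kinases and receptors. Radil, an effector of the GTPase Rap1 (1433523_at), read 8.31, 8.42 and 8.32 in shTNC, against 7.84, 7.92 and 8.04 in shControl, a difference of 0.42 ± 0.091 (SE, n = 3 per group) with an adjusted p of 0.20 in limma. The mean of Radil lay only 0.67 above the background level. Ezr, for ezrin, which links actin to the membrane (1450850_at), read 10.56, 10.29 and 10.47 in shTNC, against 10.17, 9.72 and 9.91 in shControl, a difference of 0.51 ± 0.13 with an adjusted p of 0.24. All shTNC readings of both genes were higher, although a dimmer Ezr probe set differed by 0.078 ± 0.14. Yes1, a kinase of the Src family that acts on VE-cadherin, differed by 0.33 ± 0.13, with 3 other probe sets between 0.029 and 0.69. Adm, for the barrier-tightening peptide adrenomedullin (1447839_x_at), read 10.71, 10.91 and 10.75 in shTNC, against 11.52, 11.69 and 10.81 in shControl, a difference of -0.55 ± 0.21. In Adm it was shControl replicates 1 and 2 that were high, and replicate 3 lay within the shTNC range. In this list the groups did not overlap for 11 genes higher and 0 lower in shTNC, or 30.6%, against 7.36% of all genes higher and 12.4% lower. Rhoa, Rac1, Rap1b, Plvap and Calcrl were among the 11 (named after their values were seen), with differences between 0.078 and 0.21. All 36 regulators lay above background, and among them Ramp2 and Rac1 lay within 1 log2 unit of the top. Of the 226 probe sets in that range, 32 were higher and 32 lower without overlap, or 28.3%. The share was 21.4% of the 30287 probe sets above background and 15.4% of those near background. Whether level had a part in the separation of the regulators was not tested.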

How the data were processed

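RNA of sorted lung ECs was hybridised to Affymetrix mouse arrays. The authors deposited 1 log2 value per probe set and array, after RMA normalization in Chipster. No raw array files, detection calls or depths were used here, and precision is limited by how many arrays there were. The deposited table held 45101 probe sets on 6 arrays, with 0 missing values. Of these, 34958 carried 1 gene symbol in the platform's annotation, 932 several and 9211 none.

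shTNC was tested against shControl by lmFit and eBayes of limma (version 3.58.1, run in R 4.3.3, two-sided) over all probe sets without a filter, with Benjamini-Hochberg adjustment and a threshold of 0.05. Differences are shTNC minus shControl with limma's standard error (SE) and a 95% interval. A gene was represented by its brightest probe set with a single symbol, and other probe sets of members are given beside it. For partners they are given for some genes only. Among others, Lsr, Cgn and Adm have 2 probe sets each, Cd99l2 has 4 and Pvr has 7, and only the brightest of each is given. Probe sets with a mean under 7.48 were called near background, and members within 1 log2 unit of the brightest mean, 14.44, were treated as possibly compressed. Named partners are the up to 4 genes of each list with the smallest p above background, and any other gene is said to have been chosen after its values were seen. Named markers are the 3 brightest of each list and those of the sort. The members and lists were chosen with earlier results of these data known. The script was tested on simulated data. No genome build is named for these values, so no coordinates are given. Alternatives were quantile normalization, centring of arrays, a filter on dim probe sets, other variance models, array weights, other choices of probe set, the replicate number as a block, and leaving out each array.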

Additional observations from a re-analysis of the deposited data

How the results depend on the processing

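No junction probe set had an adjusted p under 0.05 in limma in any of the 15 alternatives, and the median difference of the 9 genes lay between -0.038 and -0.0056. The number lower at an unadjusted p under 0.05, 1 as reported, was 2 with arrays centred on the median, without probe sets near background, and with an intensity trend and robust eBayes. With centred arrays and without dim probe sets these were Jam3 1423503_at and Jam2 1449408_at. With the trend they were Jam2 1449408_at and 1431416_a_at. The number was 0 with the mean of the probe sets of each gene or the dimmest one above background. Leaving out each array in turn gave between 0 and 2. The number lower without overlap, 3 as reported, was 1 of 9 with the brightest probe set of each gene only, 1 of 9 with the mean of the probe sets and 0 of 9 with the dimmest, and between 4 and 6 when an array was left out, with 0 to 4 higher, while the share of all probe sets without overlap was then between 27.6% and 34.7%, against 19.4% as reported. Jam2 turned to -0.080 with the mean of its probe sets and -0.15 with the dimmest, and ranged from -0.0051 to 0.13 when an array was left out. Ocln, at 9.4e-05, turned to -0.00053 with centred arrays and ranged from -0.070 to 0.12 without single arrays. Esam ranged from -0.034 to 0.059. The other 6 genes kept their sign at the brightest probe set, but F11r ranged from -0.11 to -0.0056 and Pecam1 from -0.057 to -0.0040 without single arrays. With the replicate number as a block, limma gave 1 lower junction probe set and no higher one at that level, and the median difference was -0.028, so no call changed. Same-numbered arrays did not pair: their deviations from the group means correlated at -0.11, 0.038 and 0.14 over 30287 probe sets. Among partners, the higher adherens junction genes at an unadjusted p under 0.05 numbered between 0 and 1 without single arrays and between 1 and 4 in the other alternatives, against 2 as reported. The lower tight junction genes numbered between 1 and 4 without single arrays, against 3, and the higher ones between 2 and 4, against 4, or up to 6 in the other alternatives. Higher regulators numbered between 2 and 5, against 4, or up to 8 in the other alternatives, and the median of the border adhesion molecules turned to 0.011 without shControl replicate 1. With 3 arrays per group, a p that misses the threshold does not show that the groups had equal levels.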
